A study of Caenorhabditis elegans with 2 samples.

Results

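Small nucleolar RNAs (snoRNAs) are short non-coding RNAs that guide chemical modification of other RNAs, above all ribosomal RNA. Those with C and D boxes direct methylation of the ribose, and those with H and ACA boxes direct conversion of uridine to pseudouridine. Many lie in introns of protein-coding genes and can be cut out of the host's intron, while others are transcribed from promoters of their own. HLH-1, a basic helix-loop-helix factor related to vertebrate MyoD, is made in body wall muscle and its precursors, and binds E-boxes, sites that begin with CA and end with TG. The question taken up here is where HLH-1 ChIP-seq summits lie at the snoRNA genes.

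All nuclear genes of biotype snoRNA in the Ensembl release 115 annotation of WBcel235 were taken, which gave 346 of 46890 genes. A summit, the base the authors marked as the top of a peak, was counted for a gene when it fell in the gene body extended by 250 bp on each side. The measurements came from whole mixed-stage embryos, both sexes pooled, of strain OP64, which carries unc-119(ed3) and the transgene insertion wgIs64. ChIP was directed at the eGFP-HLH-1 fusion in 1 group of 2 biological replicates, with fragments of 150 to 350 bp. The labels do not say which promoter drives the transgene. Whole embryos were used, so muscle cells cannot be told apart from other cells. A control library exists and is not analysed here, and there is no second condition.

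The relaxed lists, made per replicate with a loose threshold and including background, hold 28959 nuclear peaks in replicate 1 and 29975 in replicate 2. The list past the threshold of the irreproducible discovery rate (IDR), called the IDR list, holds 3254 peaks and joins both replicates. Each peak has an authors' score whose scale is not stated, so scores serve only to rank peaks within a list. The depth of sequencing is unknown. Intervals below are 95% Wilson intervals, which cover counting error only, and genes are not replicates.

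The snoRNA genes were 54 to 344 bp long, with a median of 130 bp. Of them, 169 lay inside an intron of a protein-coding gene and are called intronic, 124 overlapped no protein-coding gene and are called intergenic, and 53 overlapped a coding gene's exon or edge. The annotation gives no family, so letters were searched in the genes. Only 14 genes were C/D-like, with TGATGA in the first 20 bases and CTGA in the last 20. A further 84 were H/ACA-like, with ACA starting 4 to 8 bases before the 3′ end. The remaining 248 met neither rule, so the biotype, and not these letters, defines the group. The sequence of 3 snoRNA genes occurs more than once in the nuclear genome, and 0 of those 3 had an IDR summit. No snoRNA window held the 5′ end of an annotated tRNA gene.

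Stretches around the 5′ ends of 7 snoRNA genes are shown first because most summits lay there. Each runs 5′ to 3′ in the direction of the gene and consists of the 90 bases before the annotated 5′ end followed by the first 20 bases of the gene, read from the RefSeq sequence of WBcel235. The first 4 genes are intronic, and the capitals mark letters like those of box A (GGCNNANTG) and box B (GTTCNANNC), names given to the promoter elements inside tRNA genes. They lie at chrV:11314168-11314277, plus strand, for T03F7.8, at chrIV:2408616-2408725, minus strand, for Y38F2AR.14, at chrIII:10432253-10432362, plus strand, for H04D03.5, and at chrII:5105212-5105321, minus strand, for C04G6.12. Y38F2AR.14 holds the E-box CAGCTG, and H04D03.5 holds CAGGTG, the other strand of the E-box CACCTG. Both lie before the box A-like letters and are not capitalised. T03F7.8 and C04G6.12 hold none of the E-box kinds searched below. All 4 stretches also hold E-boxes of other kinds, which were not searched. In T03F7.8 such a site lies inside the box A-like letters, and in Y38F2AR.14 and H04D03.5 such a site runs into them. At H04D03.5 the IDR summit lay 79 bp upstream, outside the paired letters, which begin 58 bp upstream.

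T03F7.8: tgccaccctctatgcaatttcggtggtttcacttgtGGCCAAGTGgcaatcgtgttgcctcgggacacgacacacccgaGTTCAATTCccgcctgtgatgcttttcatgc
Y38F2AR.14: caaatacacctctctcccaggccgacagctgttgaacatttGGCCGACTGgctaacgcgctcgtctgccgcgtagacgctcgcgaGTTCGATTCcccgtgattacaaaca
H04D03.5: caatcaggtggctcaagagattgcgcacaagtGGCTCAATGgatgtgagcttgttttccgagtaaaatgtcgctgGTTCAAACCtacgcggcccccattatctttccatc
C04G6.12: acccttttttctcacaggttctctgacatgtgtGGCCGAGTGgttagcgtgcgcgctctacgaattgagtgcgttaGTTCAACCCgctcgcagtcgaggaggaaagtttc

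In a second kind of stretch the capitals mark AAC and TGTCGG with 8 bases between them. ZK994.7 is intronic (chrV:8500489-8500598, plus strand) and T26A8.6 is intergenic (chrIV:8428720-8428829, minus strand). T26A8.6 falls outside the rule for named genes and was chosen after its values were seen.

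ZK994.7: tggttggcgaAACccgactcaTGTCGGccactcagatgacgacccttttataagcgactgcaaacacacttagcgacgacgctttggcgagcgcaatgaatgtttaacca
T26A8.6: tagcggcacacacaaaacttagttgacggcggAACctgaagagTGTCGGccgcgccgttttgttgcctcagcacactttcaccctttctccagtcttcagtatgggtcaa

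The intergenic gene T25D3.8 (chrII:161524-161633, plus strand) had the highest-scoring IDR summit of all snoRNA genes. Its capitals mark the E-box CAGCTG, 72 bp before the 5′ end at its first base.

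T25D3.8: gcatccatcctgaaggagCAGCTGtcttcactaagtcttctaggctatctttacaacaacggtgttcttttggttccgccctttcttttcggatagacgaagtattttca

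HLH-1 summits were found at snoRNA genes of both kinds, inside host introns and between genes. An IDR summit lay at 26 of 169 intronic snoRNA genes (15.4%, interval 10.7 to 21.6), against 1.56% of genome tiles centred in a coding intron. It lay at 33 of 124 intergenic snoRNA genes (26.6%, 19.6 to 35), against 3.16% of tiles centred between coding genes. Tiles are neighbouring windows of 630 bp, the length of the median snoRNA window. In the class that overlaps an exon or edge it lay at 6 of 53 genes (11.3%, 5.29 to 22.6).

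Together 65 of 346 snoRNA genes had an IDR summit (18.8%, 15 to 23.2), against 5.76% of 630 bp windows centred on protein-coding starts and 2.03% of all tiles. These 65 genes rest on 64 distinct summits, 1.97% of the IDR list, because C51F7.3 and its neighbour C51F7.4 share 1. No gene had more than 1. With the 3254 highest-scoring peaks of replicate 1 alone the intronic share was 9.47%, against 1.76% of intron tiles, and with those of replicate 2 alone it was 16%, against 1.56%. For intergenic genes these shares were 20.2% in replicate 1, against 2.48% of intergenic tiles, and 26.6% in replicate 2, against 3.15%.

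**Figure D1:**
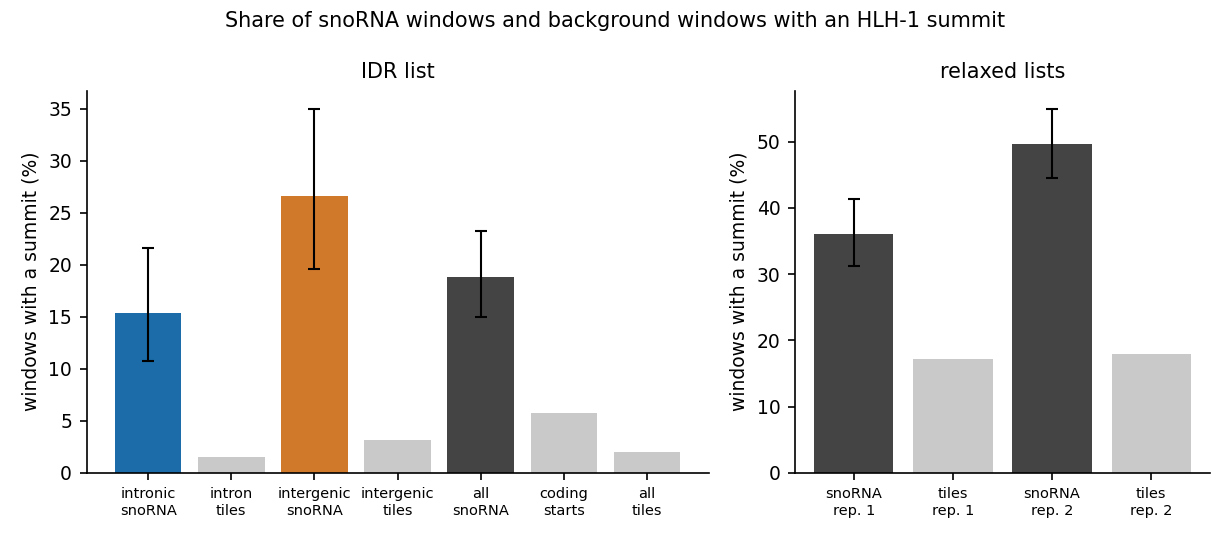
Bars give the percentage of windows with a summit, with 95% Wilson intervals on the snoRNA bars. On the left, IDR summits lay at 15.4% of intronic and 26.6% of intergenic snoRNA genes, each set beside grey bars for tiles or coding starts; on the right, relaxed-list summits in each replicate lay at 36.1% and 49.7% of snoRNA genes.

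The relaxed lists show how far each replicate reached. Replicate 1 had a summit at 125 snoRNA genes (36.1%, 31.2 to 41.3), against 17.2% of tiles. Replicate 2 had one at 172 genes (49.7%, 44.5 to 55), against 18% of tiles. Both replicates had a summit at 96 genes, of which 41 had no IDR summit. At 139 genes (40.2%) none of the relaxed lists, pooled list included, had a summit. The shares of tiles with a summit in both replicates, or in no list, were not computed. The counts of 96, 41 and 139 genes therefore have no background beside them.

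Genes with IDR summits occurred on every nuclear chromosome. The highest share was on chromosome V, with 18 of 55 snoRNA genes (32.7%), against 1.4% of its tiles. The lowest was on the X chromosome, with 3 of 33 (9.09%), against 2.73% of its tiles. In the tiles that order was the other way round, with the X chromosome highest of the 6 and chromosome V lowest.

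Most summits lay just before the snoRNA, within 100 bp of its 5′ end. Of the 64 IDR summits, 46 were in these 100 bp (71.9%, 59.9 to 81.4), 9 were farther upstream, 6 were inside the gene and 3 were downstream. Per kb of window that is 1.33 summits in the 100 bp before the gene and 0.0578 in the 100 bp after it. The median summit lay 42 bp upstream of the 5′ end, with quartiles at 23.8 and 62.8 bp. For intronic genes, 18 of 25 summits were in the 100 bp before the gene, with a median of 42 bp, and for intergenic genes 26 of 33, with a median of 47 bp.

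This placement is seen most sharply in replicate 2. Among its 3254 highest-scoring peaks, 48 of the 66 summits at snoRNA genes lay in the 100 bp before the 5′ end (72.7%), with a median of 42 bp upstream. In replicate 1 it was 18 of 44 (40.9%), with a median of 28 bp, 11 farther upstream, 9 inside and 6 downstream. For intronic genes in replicate 1 it was 6 of 15, with a median of 2 bp upstream, and 4 of the 15 lay in the 100 bp after the gene. For intergenic genes in replicate 1 it was 9 of 25, with a median of 58 bp upstream. In the relaxed list of replicate 1 there were 1.3 summits per kb before the gene and 0.462 per kb after it. In that of replicate 2 there were 2.25 and 0.318 per kb.

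**Figure D2:**
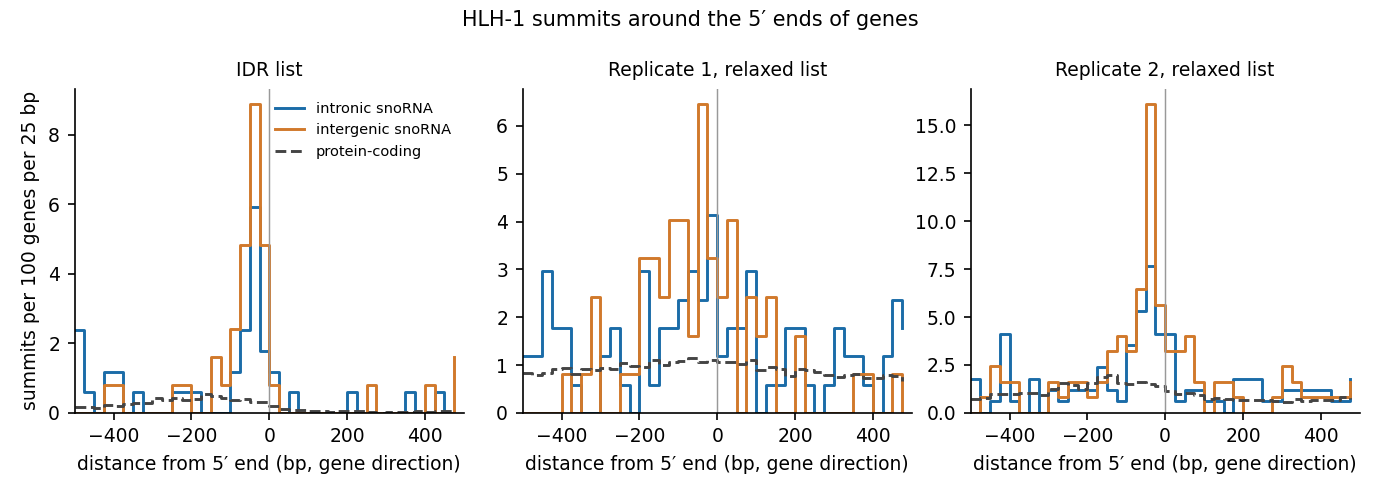
Summits per 100 genes in 25 bp bins around the 5′ end, in the direction of the gene, for intronic snoRNA genes, intergenic snoRNA genes and protein-coding genes, in the IDR list and in each replicate's relaxed list. The snoRNA lines have their high points within 100 bp before the 5′ end in all 3 panels, and those of replicate 1 are broader; each panel has its own vertical scale.

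Most of the summits lay away from annotated coding starts. Of the 64, 50 lay more than 500 bp from every protein-coding start (78.1%), against 2031 of all 3254 IDR summits (62.4%). Of these 50, 37 were in the 100 bp before the snoRNA (74%). Of the 124 intergenic snoRNA genes, 103 themselves lay over 500 bp from a coding start. Of those 103, 25 had an IDR summit (24.3%), and 8 of the 21 nearer ones did (38.1%). Of the 25 summits at intronic snoRNA genes, 24 lay in an intron and 4 were within 500 bp of a coding start.

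**Figure D3:**
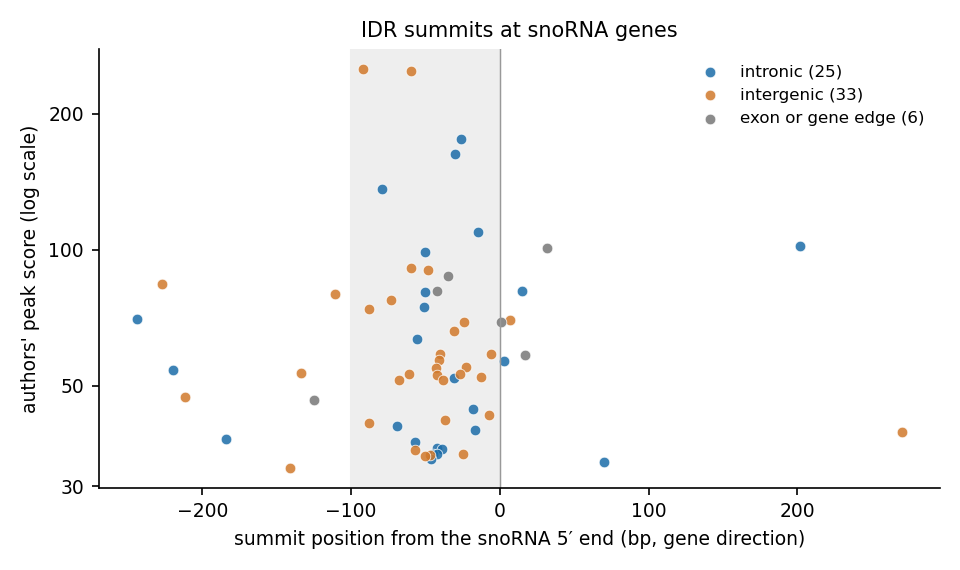
Each point is 1 of the 64 IDR summits, with its position from the snoRNA 5′ end in bp on the horizontal axis (negative is upstream, and the shaded band is the 100 bp before the gene) and the authors' score on a log axis. The band holds 46 summits, the 5 with the highest scores among them.

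Peaks at snoRNA genes were spread over the whole range of ranks in the list. Their scores ran from 32.9 to 251, with a median of 54.9, and the other 3190 IDR peaks had a median of 55.7. Of the 64 peaks, 6 were among the 500 highest, and 60 were exactly 296 bp wide.

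The strongest intergenic peaks stood at T25D3.8 on chromosome II and C26G2.11 on the X chromosome. T25D3.8 had an IDR score of 251.0 (rank 36), with rank 53 in replicate 1 and rank 39 in replicate 2, and its summit lay 92 bp upstream. C26G2.11 had 249.0 (rank 38), with ranks 102 and 35 in replicates 1 and 2, and its summit lay 60 bp upstream. These 2 genes were well apart from the next, T10B9.11, with a score of 91.1 (rank 668, ranks 3142 and 656 in replicates 1 and 2) and a summit 60 bp upstream. The other 7 of the 10 strongest intergenic genes were ZC410.9, T28B8.11, W03C9.9, ZK265.10, C29F5.11, C41C4.11 and C46C2.8, with scores from 69.2 to 90.1. Among these, T28B8.11 and W03C9.9 had summits farther than 100 bp away, at 227 and 111 bp upstream, and C41C4.11 had one 7 bp inside the gene.

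Among intronic genes, the strongest peak stood at T03F7.8, which lies in cutl-18 on the opposite strand. cutl-18 is named for its likeness to cuticlins, proteins of the worm's cuticle. Its summit had a score of 175.8 (rank 132) and lay 26 bp upstream, with ranks 283 and 132 in replicates 1 and 2. Y38F2AR.14, in Y38F2AR.12 on the same strand, had 163.3 (rank 164, ranks 246 and 160 in replicates 1 and 2) and a summit 30 bp upstream. H04D03.5, in smrd-1 on the opposite strand, had 136.6 (rank 255, ranks 257 and 275 in replicates 1 and 2) and a summit 79 bp upstream. These 3 ranked within the first 300 in both replicates.

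For several of the next genes the ranks in the replicates were far apart. ZK994.7 lies in pxn-1, which encodes a peroxidasin, and had a score of 109.4 with its summit 15 bp upstream; its best peak ranked 7322 in replicate 1 and 379 in replicate 2. C27H5.9 lies opposite pdl-1 and had 80.8 with its summit 50 bp upstream. Its best peak ranked 25361 in replicate 1, near the bottom of that list, and 702 in replicate 2. These peaks lay at different places, with the replicate 1 summit 93 bp downstream of the 5′ end and that of replicate 2 50 bp upstream. C04G6.12, opposite the MAP kinase gene mpk-2, had 98.9 with ranks 4334 and 539 in replicates 1 and 2. The others of the 10 strongest intronic genes were C04A2.16 in egl-27, C51F7.3 in frm-7, D1046.6 in cfim-2 and C05D2.15 in madf-11, with scores from 74.8 to 101.8. The summit at C04A2.16 lay 202 bp downstream of the snoRNA's 5′ end.

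Over all 65 genes with an IDR summit, replicate 1 had a summit in its relaxed list at 55 and replicate 2 at 65. The 10 genes with a summit in replicate 2 alone include T26A8.6, which had an IDR score of 55.1 and rank 1962 in replicate 2. The median rank of the best peak was 3003 in replicate 1 and 1402 in replicate 2. Where both replicates had a summit, the 2 summits lay a median of 39 bp apart, and 33 of 55 pairs were within 50 bp. Among the 3254 highest-scoring peaks of each replicate, replicate 1 held 32 of the 65 genes, replicate 2 held 62, and both held 30.

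**Figure D4:**
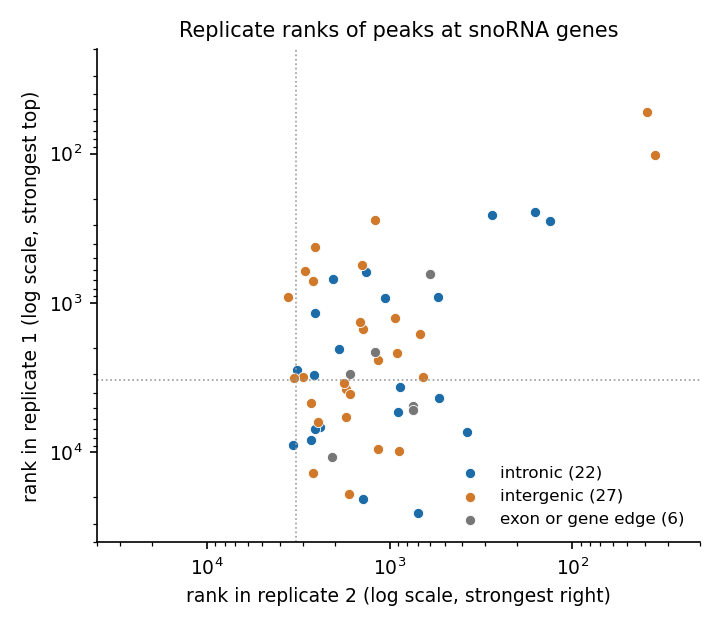
Rank of the best relaxed-list peak in replicate 2 (horizontal) and replicate 1 (vertical), both on log axes with the strongest at the right and top, for the 55 snoRNA genes that have an IDR summit and a summit in both replicates. Dotted lines mark rank 3254; nearly all points lie right of the vertical line, while many lie below the horizontal one.

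Of the genes without an IDR summit, those whose ranks in the replicates had the lowest sums are named here. In introns these were Y37E3.20, W04D2.7, Y55F3BR.9, C17D12.8 and K11C4.6, with ranks from 1292 to 5222 in replicate 1 and from 4032 to 6182 in replicate 2. K11C4.6 lies in unc-70, which encodes beta-spectrin and belongs to the list of muscle hosts. Between genes they were F30H5.4, M03D4.78, C26C6.13, F25H2.15 and Y67A10A.14, with ranks from 1616 to 3828 in replicate 1 and from 3185 to 5998 in replicate 2. F30H5.4 had no summit in the pooled list, from which the IDR list takes its peaks. By rank in that pooled list the genes nearest to the IDR list, chosen after their values were seen, were C07A9.14 (rank 3351), C02F5.15 (3371) and K10G6.10 (3450).

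The 169 intronic snoRNA genes had 149 hosts. Of snoRNAs whose host lies on the same strand, 20 of 142 had an IDR summit (14.1%), and of those with a host on the opposite strand, 6 of 27 did (22.2%). The snoRNAs with a summit lay a median of 2792 bp from the start of the host, and those without lay a median of 1522 bp from it.

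Ribosomal protein genes were the most frequent host list. Of 13 ribosomal protein hosts, 12 had an IDR summit from 2000 bp upstream to 500 bp downstream of the start, against 12.8% of all protein-coding starts, and 1 of the 19 snoRNAs they hold had one. The 1 was F54E7.10 in rps-12, with a score of 70.3 and ranks 620 and 1347 in replicates 1 and 2. This summit lay 244 bp upstream of the snoRNA, before the start of rps-12, and is the same summit that was counted at the rps-12 start. The coding start nearest to it was that of another gene, ska-3, 129 bp away. The other snoRNA of rps-12, F54E7.11, had no summit in any list. Over all 149 hosts, 57 had a summit in the window at the start (38.3%), 26 had one at an intronic snoRNA and 7 had both. The windows at starts and at snoRNAs can overlap, and in 2 of these 7 hosts, rps-12 and pdl-1, a single summit was counted in both. The other 19 of the 26 hosts had a summit at the snoRNA and none in the window at the start.

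The remaining host lists were small and held no summit at a snoRNA. They were translation factors (2 hosts with 3 snoRNAs), splicing factors (2 with 2), the proteasome (1 with 1) and muscle genes (2 with 2). In the window at the host's start, 2 of 2 translation factor hosts and 2 of 2 muscle hosts had an IDR summit. Of the splicing and proteasome hosts, 0 had one there, and of all protein-coding starts 12.8% did. Of 16 hosts with 2 or more intronic snoRNAs, 36 snoRNAs in all, pdl-1 and rps-12 each had 1 snoRNA with an IDR summit. In pdl-1 it was C27H5.9, and C27H5.10 had none. nol-56, a gene for a core protein of C/D snoRNA particles, holds 4 snoRNAs, and rpl-6 and top-2 hold 3 each, all without an IDR summit.

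Other classes of small RNA gene had summits too. With the same rule, 17.5% of 612 tRNA genes, 8.53% of 129 snRNA genes and 6.51% of 261 miRNA genes had an IDR summit, beside the 18.8% of snoRNA genes. This did not hold for every class, as only 0.469% of 15363 piRNA genes had one, against 2.03% of all genome tiles. In the 100 bp before the 5′ end it was 13.6% of snoRNA genes, 7.19% of tRNA genes, 6.98% of snRNA genes and 1.15% of miRNA genes. Of the 11 snRNA genes with a summit, 9 had one in these 100 bp, as did 47 of the 65 snoRNA genes and 44 of the 107 tRNA genes. In the 100 bp after the 3′ end it was 0.578% of snoRNA genes, 1.8% of tRNA genes and 0% of snRNA genes. These differences were not tested.

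E-boxes, the letters that MyoD factors bind, were read on both strands. Those searched were CAGCTG, then as a second kind CAACTG, and as the last kind CACCTG. The summit base with 50 bp on each side held at least 1 of these 3 at 17 of 64 summits at snoRNA genes (26.6%, 17.3 to 38.5), against 39% of the 3190 others (37.3 to 40.7). In windows 500 bp to the right of the same 64 summits it was 8 (12.5%, 6.47 to 22.8). The difference from the other IDR summits was not tested. CAGCTG alone was in 10.9% of windows at snoRNA genes and 15.3% of the others, and CAACTG in 10.9% and 18.2%. Among the 31 summits at snoRNA genes that score above the median of the list, 38.7% held one of the 3 E-boxes (23.7 to 56.2), against 50.1% of the 1596 others above it (47.6 to 52.5).

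Letters like those of box A and box B were also counted in these windows, and the differences were not tested. GTTCNANNC and GGCNNANTG were chosen after sequences before snoRNA genes with summits had been read. Their shares at these same summits describe them and are not independent evidence. GTTCNANNC was in 26.6% of windows at snoRNA genes, against 3.95% of the other IDR summits, and GGCNNANTG in 25% against 5.39%. GTTCNANNC was found in 95.9% of 612 tRNA genes with 50 bp on each side, where box B is known to lie. GGCNNANTG was found in only 24.5% of the same tRNA windows, so these box A-like letters were absent from most of them. Of the hexamers present in at least 10% of the snoRNA windows, the 5 with the highest ratio to the other summits were as follows. GCGTTA was in 12.5% of snoRNA windows against 1.35% of the others, GGTTAA in 12.5% against 1.69%, CGACCC in 12.5% against 1.82%, CCAGCG in 15.6% against 2.51% and TAACCA in 14.1% against 2.29%. GCGCGC was in 14.1% against 5.58%, GAGAGA in 17.2% against 29.9%, and GACGCA in 12.5% against 14.7%.

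The stricter box B letters GTTCGANNC were searched in the gene and, separately, in the 250 bp before it, and were found in 26 snoRNA genes. Of these 12 had an IDR summit (46.2%, 28.8 to 64.5), against 53 of the other 320 genes (16.6%, 12.9 to 21). This search missed letters that span the 5′ end. Y38F2AR.14 and C05D2.15 carry such letters, had an IDR summit and were counted among the 53, so the counts are not exact.

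The pair of box A-like and box B-like letters was chosen after the sequences before genes with summits had been read, so its counts describe those genes and are not independent evidence. GGCNNANTG followed by GTTCNANNC 10 to 80 bases later was searched on the gene's strand from 100 bp before the 5′ end through the first 20 bases of the gene. It was found in 14 snoRNA genes (4.05%), against 0 of 346 windows of the same length after the 3′ ends, 0.0407% of 120 bp genome tiles and 2 of 19973 protein-coding starts. The pair was found in only 124 of 612 tRNA genes with 50 bp on each side (20.3%). Of the 14 snoRNA genes, 12 had an IDR summit, and these included all 8 intronic ones. The window was first drawn without the 20 bases inside the gene, and was widened after the sequences were read. The narrower one held 12 genes, 10 of them with a summit, and the 2 that widening added, Y38F2AR.14 and C05D2.15, both had one. With the 3254 highest-scoring peaks of replicate 1 alone, 7 of the 14 genes had a summit, and with those of replicate 2 alone, 12.

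At the 12 genes with a summit the median summit lay 35 bp upstream, and 8 of the 12 summits fell between the first and the last base of the paired letters. In the relaxed lists it was 4 of 13 genes with a summit in replicate 1 and 7 of 14 in replicate 2. Over all 14 genes, the letters ran from a median of 55 bp to 4 bp before the 5′ end. The genes without an IDR summit were Y59E1B.14 and ZK546.18.

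AAC and TGTCGG, 8 bases apart, were chosen in the same way. They occurred in 28 snoRNA genes (8.09%), against 1 window after the 3′ ends, 0.126% of tiles and 10 of 19973 protein-coding starts. Of the 28 genes, 8 had an IDR summit (28.6%, 15.3 to 47.1), among them ZK994.7 and T26A8.6. Of the 304 snoRNA genes with neither pair, 45 had one (14.8%, 11.3 to 19.2), T25D3.8 and C26G2.11 among them. With only the summits above the median score of the list it was 2 of 28 genes with this pair (7.14%), against 21 of 304 with neither (6.91%). Over all 28 genes, these letters ran from a median of 59.5 bp to 43.5 bp before the 5′ end, a shorter stretch than that of the box-like pair. Between their first and last base fell 3 of the 8 IDR summits. In the relaxed lists it was 0 of 16 genes with a summit in replicate 1 and 2 of 21 in replicate 2. At ZK994.7 and T26A8.6 the IDR summits, 15 and 23 bp upstream, lay nearer the gene than the letters. A match is a description of letters and does not show that a factor binds there.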

How the data were processed

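Per the deposited manifest, the authors called relaxed peak lists per replicate and on pooled alignments, with a control, and derived the IDR list from them. No aligner, peak caller, IDR threshold or read depth is given in the sources used here. The deposited lists hold, for each peak, the authors' score, on a scale that is not stated, and the summit's offset. The ce11 lists were used, 1-based. Genes came from Ensembl release 115 and sequence from RefSeq, both WBcel235. Counts were made with Python 3.11.15, numpy 2.4.6, pandas 2.3.3 and scipy 1.17.1, with no test. A summit was counted within 250 bp of a gene; the scoring was tested on simulated data with summits planted at known genes.

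The members, gene lists and letters were chosen with earlier results of these data known. Named are, per class, the 10 genes with the highest-scoring IDR summits and the 5 without one whose replicate ranks sum lowest, hosts of 2 or more snoRNAs with a summit at 1, and hosts in a list with a summit; further genes were named after their values were seen. Alternatives were other flanks (0, 100 and 500 bp), peak overlap of at least 1 bp, the higher-scoring part of the list, the 3254 highest peaks of 1 replicate, merged loci, other windows and other letters.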

Additional observations from a re-analysis of the deposited data

How the results depend on the processing

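The number of snoRNA genes with an IDR summit was 45 to 67 with 1 replicate left out, 6 with no flank and 32 with only the higher-scoring part of the list, beside 65. The intronic share of 15.4% became 1.18% with no flank, 23.1% with a flank of 500 bp, 7.69% with the higher-scoring part, and 9.47% to 16% with 1 replicate left out. The intergenic share of 26.6% became 0.806% with no flank, 11.3% with the higher-scoring part and 20.2% to 26.6% with 1 replicate left out. The low values with no flank follow from summits lying before the gene. The share of summits with an E-box was 15.6% with 25 bp on each side, 39.1% with 100 bp on each side, 38.7% in the higher-scoring part and 22.7% to 28.8% with 1 replicate left out, beside 26.6%. The share of summits in the 100 bp before the gene was 40.9% without replicate 2 and 72.7% without replicate 1. The share of genes with the paired letters that had a summit was 50% to 85.7% with 1 replicate left out, 83.3% in the narrower window and 77.8% with GTTCGANNC; these letters and the alternatives on them and on position were chosen after seeing the data. The cause was not tested except where stated. Read depth is unknown and the control is not analysed here, so counting intervals leave out most sources of error. No paired analysis was possible because there is 1 group.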
